A study of Mus musculus with 60 samples.

Results

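The matrix metalloproteinases (MMPs) and their tissue inhibitors (TIMPs) were followed in mouse hearts as 10 transcripts, Mmp2, Mmp3, Mmp11, Mmp12, Mmp14, Mmp15, Timp1, Timp2, Timp3 and Timp4. They were taken by gene name, with earlier results of these data known, and they are 10 of the 53700 gene rows of the count table. The hearts came from dnOGAh mice, which carry a doxycycline-dependent rat O-GlcNAcase splice variant (TRE-EGFP-dnOGA, a dominant negative form of the enzyme that removes O-GlcNAc from proteins) together with the αMHC-rtTA transactivator, and from CON mice with αMHC-rtTA alone. Both genotypes therefore carry the transactivator, whose α-myosin heavy chain promoter is used to confine transgene expression to cardiomyocytes, and both received doxycycline. Every mouse was a C57BL/6 male given a 100 μg injection at 10 weeks of age, moved to a 1 g/kg doxycycline diet, and killed 2 weeks later at 12 weeks. Ventricular polyA RNA was sequenced from 5 hearts of each genotype every 4 h around the day, at ZT0 (lights on), ZT4, ZT8, ZT12 (lights off), ZT16 and ZT20, 6 times in all, which gives 60 libraries, 30 per genotype. The comparison asks whether a rise in cardiomyocyte O-GlcNAcylation alters the level of these transcripts and their variation over the day.

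CON libraries held between 9162859 and 82938039 gene counts, and dnOGAh libraries between 14540266 and 54766622. Oga (listed as Mgea5), whose row may also take reads from the rat transgene, lay between 46.7 and 72.1 counts per 1e+06 (CPM) in CON and had a median of 456 CPM in dnOGAh, but reached only 70.0 CPM in the ZT12 library labelled dnOGAh replicate 3, within the CON range. The share of mitochondrial genome counts was 77.6% in CON ZT4 replicate 4 and 66.0% in its dnOGAh counterpart at the same time (replicate 4), against medians of 30.7% in CON and 17.2% in dnOGAh. These 3 libraries were kept, and values without them are given where they move a result. All 6 cardiomyocyte markers examined were abundant in both genotypes, from a mean of 300.1 CPM for Ryr2 in dnOGAh hearts to 13422 CPM for Myl2 in CON hearts.

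MMPs are zinc-dependent endopeptidases that are made as inactive zymogens and cut collagens, elastin, proteoglycans, cell surface proteins and other zymogens. TIMPs are small secreted proteins that bind the active site of an MMP and block it, and they are also needed for some zymogens to be activated on the cell membrane. In the heart this balance is known for its part in the turnover of the matrix between cardiomyocytes after injury, overload and inflammation, where fibroblasts and macrophages are major sources of several members.

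Promoter sequences were taken from RefSeq (GRCm38.p6) and run from 250 bases before to 50 bases after a gene's start, in the direction of transcription. Of the 10 transcripts 9 had an entry, Mmp12 with 2 starts, and Mmp2 had none. The promoters of Timp1, Mmp12, Mmp14 and Mmp3 are shown because these 4 transcripts rose most in dnOGAh hearts and because AP-1 and ETS factors are known regulators of MMP and TIMP genes. Capitals mark matches to the AP-1 element TGANTCA and to the ETS core GGAAGT or its complement ACTTCC.
Timp1 (chrX:20869916-20870215, + strand): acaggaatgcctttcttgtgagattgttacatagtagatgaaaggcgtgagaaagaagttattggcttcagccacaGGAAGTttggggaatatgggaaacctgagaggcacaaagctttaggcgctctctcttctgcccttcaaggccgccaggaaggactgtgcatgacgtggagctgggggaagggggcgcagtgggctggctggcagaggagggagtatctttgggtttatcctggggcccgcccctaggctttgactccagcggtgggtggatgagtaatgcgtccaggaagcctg
Mmp12, first start (chr9:7344147-7344446, + strand): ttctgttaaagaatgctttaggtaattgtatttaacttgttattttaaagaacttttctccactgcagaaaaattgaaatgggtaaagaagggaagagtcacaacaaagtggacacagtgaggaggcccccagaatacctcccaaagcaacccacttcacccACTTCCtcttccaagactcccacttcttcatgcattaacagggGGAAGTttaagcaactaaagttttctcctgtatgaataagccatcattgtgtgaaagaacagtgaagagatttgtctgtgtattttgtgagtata
Mmp12, second start (chr9:7347124-7347423, + strand): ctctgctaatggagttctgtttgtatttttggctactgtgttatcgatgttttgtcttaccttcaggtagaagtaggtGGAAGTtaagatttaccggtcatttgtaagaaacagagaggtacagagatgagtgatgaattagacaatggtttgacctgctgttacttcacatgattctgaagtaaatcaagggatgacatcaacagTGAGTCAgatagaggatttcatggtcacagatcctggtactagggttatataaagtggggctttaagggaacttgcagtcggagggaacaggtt
Mmp14 (chr14:54431348-54431647, + strand): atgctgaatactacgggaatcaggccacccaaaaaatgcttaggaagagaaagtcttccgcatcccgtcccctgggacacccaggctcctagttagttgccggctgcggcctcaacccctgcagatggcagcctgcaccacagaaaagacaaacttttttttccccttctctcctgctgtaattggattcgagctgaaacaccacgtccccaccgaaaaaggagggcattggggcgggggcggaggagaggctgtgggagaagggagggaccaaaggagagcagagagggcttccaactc
Mmp3 (chr9:7445572-7445871, + strand): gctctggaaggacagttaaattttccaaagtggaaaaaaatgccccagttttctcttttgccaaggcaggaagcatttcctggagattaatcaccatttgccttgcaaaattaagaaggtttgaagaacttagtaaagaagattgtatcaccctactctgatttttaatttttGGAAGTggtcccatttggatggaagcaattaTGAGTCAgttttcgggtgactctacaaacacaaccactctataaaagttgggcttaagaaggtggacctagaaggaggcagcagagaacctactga
The element TGAGTCA begins 46 bases before the Mmp3 start and 44 bases before the second Mmp12 start, and no other promoter of the 9 genes holds TGANTCA. That element, which reads the same on both strands, was found in 7.81% of all 32817 promoters of the same length. The Mmp14 promoter holds neither motif in this window. The ETS core was found on either strand in 4 of the 9 genes (Mmp3, Mmp12, Timp1 and Timp4) and in 23.8% of all promoters. The E-box CACGTG, the canonical element of the clock factors BMAL1 and CLOCK, was in 7.15% of all promoters and in none of the 9 genes within this window. No match overlapped another, and a match is only a run of letters.

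Averaged over the day, 7 of the 10 transcripts were higher in dnOGAh than in CON hearts (Timp1, Mmp12, Mmp14, Mmp3, Mmp2, Timp2 and Mmp11), 2 were lower (Timp4 and Mmp15), and Timp3 did not pass the test. Timp1 showed the largest change, a 64.6-fold rise, followed by Mmp12 at 33.4-fold and Mmp14 at 6.17-fold. The mean genotype difference over the 6 times was tested by quasi-likelihood in edgeR with Benjamini-Hochberg adjustment across 18119 genes, and all 10 transcripts passed the filter on low counts. The same test called 70.7% of all genes, 38.8% as higher and 31.9% as lower in dnOGAh, so being called is common in these hearts and the sizes of the changes carry more than the count. The median log2 fold change of the 10 transcripts was 0.85 and that of all genes tested was 0.06. Where fewer than 30 dnOGAh libraries are said below to lie outside the CON range, no share over all genes was determined. A whole heart holds many cell types, and fewer cells of a type and less RNA per cell cannot be told apart in such libraries.

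**Figure D1:**
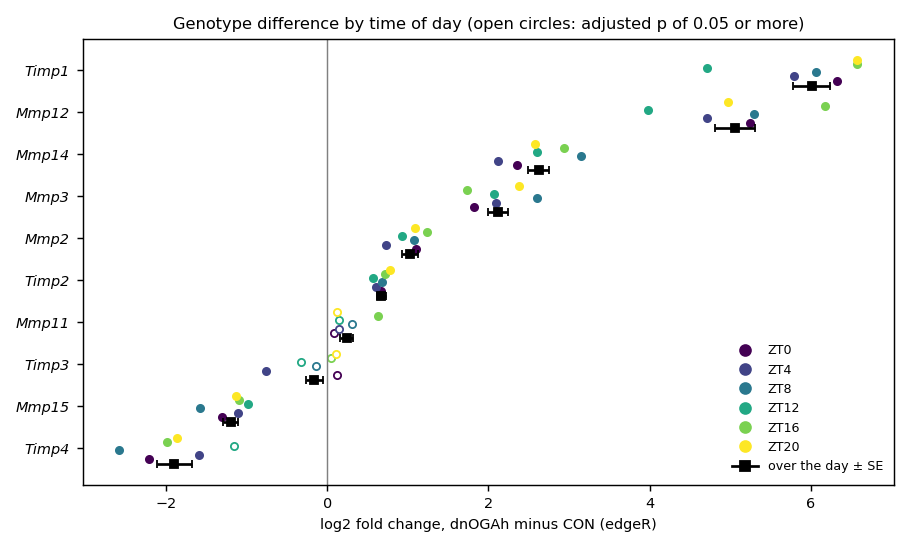
Log2 fold change of each transcript (dnOGAh minus CON, edgeR) at each of the 6 times (circles, 5 hearts per genotype and time) and over the day (black squares, bars are 1 SE); open circles did not pass an adjusted p of 0.05. Timp1 and Mmp12 lie far to the right at every time, Timp4 and Mmp15 to the left of zero at every time, and Timp3 on both sides.

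Mmp2 encodes gelatinase A, which degrades denatured and basement membrane collagen. Its level ran from 45.8 to 77.6 CPM in CON hearts with a median of 65.3, and from 31.2 to 222 CPM in dnOGAh hearts with a median of 126.0. In 27 of 30 dnOGAh libraries it was above the highest CON library, and the exceptions were ZT12 replicate 3 (58.0 CPM), ZT4 replicate 4 (31.2 CPM) and ZT20 replicate 2 (70.6 CPM). The difference was 1.02 on the log2 scale (SE 0.1003, adjusted p = 1.79e-13, edgeR).

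Among the stromelysins, Mmp3 codes for stromelysin-1, which cuts proteoglycans and laminin and activates other MMP zymogens, and Mmp11 for stromelysin-3, a weaker matrix protease that is activated inside the cell by furin. Mmp3 lay between 1.81 and 7.19 CPM in CON hearts (median 4.21) and between 8.24 and 28.6 CPM in dnOGAh hearts (median 18.2). All 30 dnOGAh libraries were above the highest CON library, which held for 0.938% of all genes. Its log2 fold change was 2.12 (SE 0.126, adjusted p = 1.09e-21, edgeR).

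Mmp11 moved little. It ranged from 4.73 to 11.9 CPM in CON (median 7.41) and from 3.66 to 13.7 CPM in dnOGAh (median 8.98), and 24 of the 30 dnOGAh libraries fell inside the CON range. A log2 fold change of 0.24 (SE 0.0780) passed the threshold over the day (adjusted p = 0.00531, edgeR). Of its 2778 annotated exon bases 155 are shared with an exon of Chchd10 on the opposite strand, a mitochondrial protein gene at 252 CPM in CON and 150.4 CPM in dnOGAh hearts. Whether the reads were counted by strand is not given in the sources used here, so a small exchange of reads between this pair cannot be told apart from Mmp11.

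Mmp12, macrophage metalloelastase, cuts elastin and is in most tissues a product of macrophages. It was barely detected in CON hearts, with 1 to 34 counts per library, a range of 0.0821 to 2.18 CPM and a median of 0.482 CPM. In dnOGAh hearts it ran from 0.977 to 34.2 CPM with a median of 17.9. The 2 dnOGAh libraries inside the CON range were ZT12 replicate 3, the lowest, and ZT4 replicate 4 (2.08 CPM), and the other 28 lay above it. Its log2 fold change was 5.06 (SE 0.245, adjusted p = 2.03e-25, edgeR).

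The membrane-type members moved in opposite directions. Mmp14 (MT1-MMP) is the membrane-bound collagenase that activates the Mmp2 zymogen with the help of TIMP2, and its level lay between 7.14 and 40.9 CPM in CON (median 15.3) and between 22.0 and 169 CPM in dnOGAh hearts (median 92.0). Its log2 fold change was 2.62 (SE 0.127, adjusted p = 2.33e-25, edgeR), and 28 of 30 dnOGAh libraries were above every CON library, the others being ZT12 replicate 3 (22.0 CPM) and ZT20 replicate 5 (33.0 CPM). The highest CON library, ZT4 replicate 4, is the one rich in mitochondrial counts, and without it CON hearts reached 23.5 CPM.

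Mmp15 (MT2-MMP), another membrane-bound member, fell instead. It lay between 87.6 and 148 CPM in CON hearts (median 118) and between 23.5 and 86.9 CPM in dnOGAh hearts (median 53.1), so that all 30 dnOGAh libraries were below the lowest CON library. The share of all genes with such a fall was not determined. On the log2 scale the difference was -1.20 (SE 0.0890, adjusted p = 7.39e-18, edgeR). In dnOGAh ZT12 replicate 3 it stood at 70.3 CPM, and the highest dnOGAh library was ZT20 replicate 5.

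Of the inhibitors, Timp1 is the one best known as an inducible response to injury and inflammatory signals. Its level was 0.595 to 18.4 CPM in CON hearts (median 4.33) and 41.9 to 636 CPM in dnOGAh hearts (median 274.5), with no overlap between the genotypes in any of the 60 libraries. All 30 dnOGAh libraries lay above every CON library for 0.938% of all genes. The lowest dnOGAh libraries were ZT12 replicate 3 (41.9 CPM) and ZT20 replicate 5 (51.4 CPM), and even these were above the highest CON library. The rise on the log2 scale was 6.01 (SE 0.229, adjusted p = 2.51e-29, edgeR).

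Timp2, which is made constitutively in many tissues and takes part in Mmp2 activation, rose less. CON hearts held 78.8 to 141 CPM (median 121) and dnOGAh hearts 104 to 259.5 CPM (median 197), and 28 of 30 dnOGAh libraries exceeded all CON libraries. The exceptions were ZT4 replicate 4 (104 CPM) and ZT12 replicate 3 (132 CPM). The log2 fold change was 0.67 (SE 0.0541, adjusted p = 1.99e-16, edgeR), the change with the smallest SE among the 10 transcripts.

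Timp3, the member that binds to the matrix and also blocks ADAM sheddases, did not pass the test over the day. It ran from 5.56 to 28.3 CPM in CON (median 15.4) and from 5.80 to 25.5 CPM in dnOGAh hearts (median 13.4), every dnOGAh library inside the CON range, and its log2 fold change was -0.16 (SE 0.102, adjusted p = 0.157, edgeR). In the reference annotation 1733 of its 8144 exon bases overlap exons of Syn3 on the opposite strand, a gene with a mean of 0.495 CPM in CON and 0.410 CPM in dnOGAh hearts.

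Timp4 is the TIMP most restricted to heart and other muscle, and it fell. Its level was 23.0 to 117 CPM in CON hearts (median 46.3) and 1.99 to 99.3 CPM in dnOGAh hearts (median 12.7). In 26 of 30 dnOGAh libraries it was below the lowest CON library, and the highest of the other 4 was ZT12 replicate 3. The log2 fold change was -1.90 (SE 0.214, adjusted p = 1.7e-11, edgeR). Without the 3 libraries that stand apart dnOGAh hearts reached only 30.6 CPM, and the log2 fold change over the day was -2.09.

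Markers of other cell types moved with these transcripts, and their part in the changes was not tested. All 8 macrophage and monocyte markers were higher in dnOGAh hearts, with a summed level of 187 to 349 CPM in CON and 388 to 2557 CPM in dnOGAh hearts, and all 7 fibroblast markers were higher, from 868 to 1172 CPM in CON to between 1254 and 4925 CPM. The 6 cardiomyocyte markers (27973 to 51445 CPM in CON, 12150 to 66594 CPM in dnOGAh) and the 4 endothelial markers (342 to 661 CPM in CON, 173 to 549 CPM in dnOGAh) were all lower. The cardiomyocyte sum of 66594 CPM is that of dnOGAh ZT12 replicate 3, and without the 3 libraries that stand apart the sums were 36515 to 51445 CPM in CON and 12150 to 28363 CPM in dnOGAh hearts, with no overlap. Without them the macrophage sums in dnOGAh hearts began at 708 CPM and the fibroblast sums at 2347 CPM. Of 4 neutrophil markers 3 were tested and rose, with sums of 0.367 to 3.87 CPM in CON and 3.42 to 35.2 CPM in dnOGAh hearts. Most of the rise was in Csf3r, with means of 1.11 CPM in CON and 15.2 CPM in dnOGAh hearts. S100a8 (0.432 and 0.702 CPM) and S100a9 (0.460 and 1.00 CPM) did not keep one direction at all 6 times. The defining Ly6g was too low to test, with no read in 29 CON and 28 dnOGAh libraries. Of 4 lymphocyte markers Cd3e and Nkg7 rose, and the list summed to 0 to 3.46 CPM in CON and 1.89 to 38.4 CPM in dnOGAh hearts. Among 5 smooth muscle and pericyte markers 1 rose and 2 fell, both atrial markers fell (sums of 1.40 to 540 CPM in CON and 3.45 to 281 CPM in dnOGAh), and 1 of 3 adipocyte and 1 of 3 mesothelial markers fell. The libraries with the lowest Mmp12 also had the lowest macrophage sums of their genotype, 388 CPM in ZT4 replicate 4, 406 CPM in ZT12 replicate 3 and 708 CPM in ZT20 replicate 5, where Mmp12 was at 4.65 CPM. The highest macrophage sum, 2557 CPM, was in ZT8 replicate 2, which also had the highest Mmp14, Mmp11 and Timp2 of all 60 libraries and the lowest Mmp15. Mmp12 was not high there, at 16.0 CPM against a dnOGAh median of 17.9 CPM. That library also had a high fibroblast sum (4164 CPM, rank 27 from the lowest in its genotype) and a low cardiomyocyte sum (12400 CPM, rank 3).

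At single times of day the same pattern was found in 5 hearts against 5. The number of transcripts called higher in dnOGAh hearts was 6 at ZT0, ZT4, ZT8, ZT12 and ZT20 and 7 at ZT16, and the number called lower was 2 at ZT0, ZT8, ZT16 and ZT20, 3 at ZT4 and 1 at ZT12 (edgeR, adjusted within each time). Across all genes 23.7% were called higher and 18.9% lower at ZT0 (42.5% in all), 18.5% and 14.2% at ZT4 (32.7%), 24.9% and 21.2% at ZT8 (46.1%), 18.8% and 13.0% at ZT12 (31.9%), 23.1% and 17.7% at ZT16 (40.8%), and 23.6% and 16.3% at ZT20 (40.0%). Timp1, Mmp12, Mmp14, Mmp3, Mmp2 and Timp2 were called higher and Mmp15 was called lower at all 6 times. The groups of 5 were apart for 8 transcripts at ZT0 (38.6% of all genes), 6 at ZT4 (14.4%), 8 at ZT8 (42.0%), 4 at ZT12 (15.2%), 9 at ZT16 (35.0%) and 7 at ZT20 (23.8%). The 5 hearts of each genotype did not overlap at any of the 6 times for Mmp3, Mmp14, Mmp15 and Timp1, a pattern held by 3.1% of all genes.

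**Figure D2:**
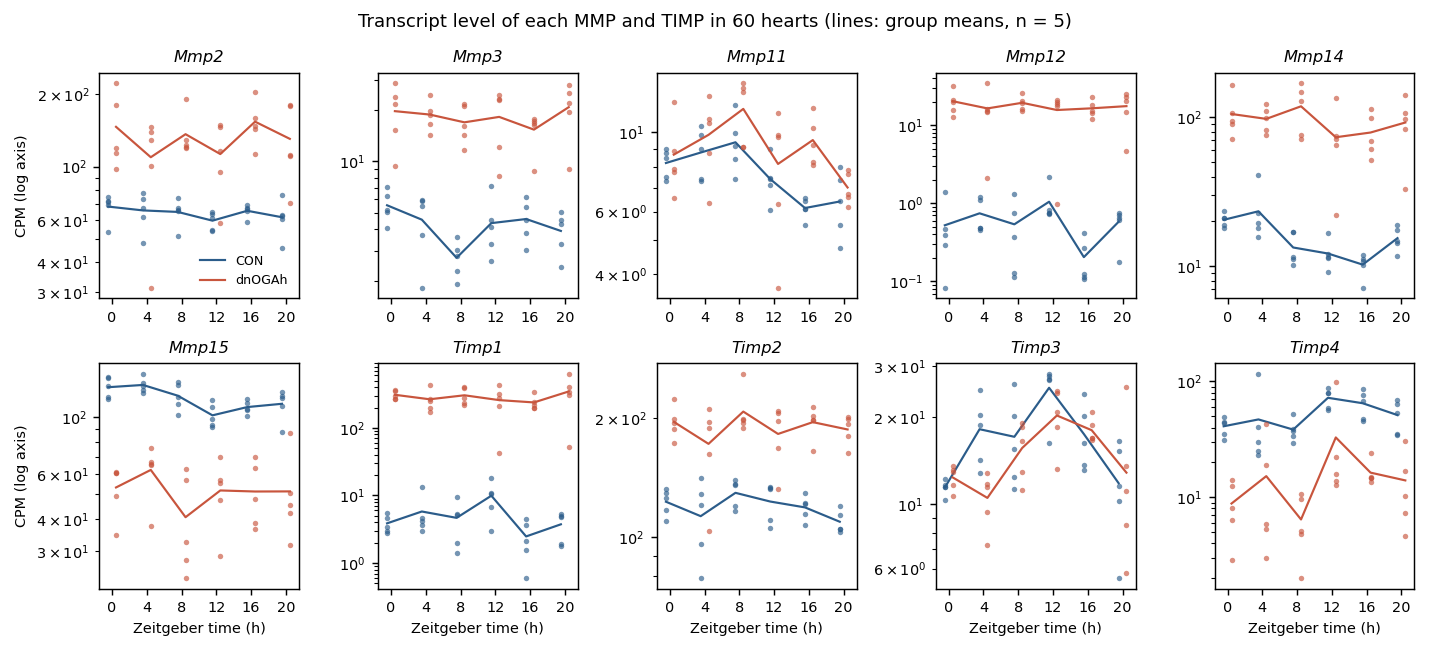
Level of each transcript (CPM, log axis) against Zeitgeber time in every heart, CON in blue and dnOGAh in red, with lines through the means of 5 hearts. The genotypes are apart at every time for Mmp3, Mmp14, Mmp15 and Timp1 and lie over each other for Timp3, and single dnOGAh points fall into the CON range of their time at ZT4 or ZT12 for Mmp2, Mmp12, Timp2 and Timp4, and at ZT20 for Mmp2.

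The remaining 3 transcripts differed in what was called by time. Mmp11 was called at ZT16 alone, where the CON hearts were at 5.51, 6.10, 6.56, 6.08 and 6.43 CPM and the dnOGAh hearts at 8.27, 10.3, 11.7, 9.20 and 8.10 CPM. All 5 dnOGAh hearts were above all 5 CON hearts there (log2 fold change 0.63, SE 0.193, adjusted p = 0.00638, edgeR), and without replicate 2 the call was lost (adjusted p = 0.0517). Timp3 was called at ZT4 alone, with CON hearts at 12.9, 14.3, 20.3, 24.8 and 18.8 CPM and dnOGAh hearts at 9.40, 11.5, 7.22, 11.8 and 12.8 CPM. The groups did not overlap (log2 fold change -0.76, SE 0.253, adjusted p = 0.0162, edgeR), but the call was lost without replicate 3 or 4 (adjusted p = 0.144 and 0.0522), and groups of 5 were apart for 14.4% of all genes at this time.

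Timp4 was called lower at every time but ZT12, where 1 dnOGAh library lay far from the other 4. At ZT12 the CON hearts were at 86.9, 56.2, 59.1, 78.8 and 80.1 CPM and the dnOGAh hearts at 12.8, 15.9, 99.3, 22.5 and 13.8 CPM. The library at 99.3 CPM is the one labelled dnOGAh replicate 3 in which Oga is at the CON level, and the other 4 dnOGAh hearts lay below all 5 CON hearts. The log2 fold change was -1.15 (SE 0.509, adjusted p = 0.0772, edgeR) with that library and -2.15 without it (adjusted p = 0.000456). With that library kept, Timp4 at ZT12 also passed when replicate number was added as a block (-1.29, adjusted p = 0.0328, edgeR). It passed as well without dnOGAh ZT4 replicate 4 (-1.15, adjusted p = 0.0494, edgeR), so the value lies near the threshold. At ZT4 the call on Timp4 (-1.59, adjusted p = 0.0154) was lost without CON replicate 4, whose 117 CPM is the highest of all CON hearts (-0.995, adjusted p = 0.118), while without all 3 libraries that stand apart, one of them dnOGAh ZT4 replicate 4 at 42.8 CPM, it was -1.77 (adjusted p = 0.000614). Mmp2 at ZT4 (0.73, adjusted p = 0.0169) did not pass without replicate 1, 2 or 3 (0.67, 0.59 and 0.67, adjusted p = 0.0750, 0.114 and 0.0676), and without those 3 libraries it was 0.90 (adjusted p = 0.000355).

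Whether the genotype difference itself depended on the time of day was tested with the genotype by time interaction. No transcript passed (edgeR, adjusted p = 1.0 for all 10), none reached an unadjusted p under 0.05, and the smallest was that of Timp1 (unadjusted p = 0.0641). With DESeq2 none passed after adjustment and 1, Timp1, had an unadjusted p under 0.05 (0.0445). Across all genes 0.0% passed the interaction test, while 464 genes had an unadjusted p under 0.05. The calls that appear at some times and not at others for Mmp11, Timp3 and Timp4 are therefore not shown to differ between times.

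Oscillations with a 24 h period were examined within each genotype with JTK_CYCLE, a rank test against the ordering that a 24 h cycle would give, with q-values across all genes. In CON hearts 3 of the 10 transcripts oscillated, Mmp14, Mmp11 and Mmp15, against 2.13% of all genes, and 5 had an unadjusted p under 0.05 (11.8% of all genes). None of the 10 oscillated in dnOGAh hearts (0.171% of all genes), where 2 had an unadjusted p under 0.05, Timp3 and Mmp11 (3.77% of all genes). A cosine fitted by edgeR called 4 in CON (2.63% of all genes) and 0 in dnOGAh hearts (0.243%; 1 at an unadjusted p under 0.05), and a test of time with no set shape called 2, Mmp14 and Timp3, in CON (1.57%) and 0 in dnOGAh hearts (0.149%). The test of the difference in rhythm between the genotypes (edgeR, genotype by cosine and sine terms) called no transcript of the 10 and 0.0166% of all genes, with an adjusted p of 1.0 for each of the 10. The smallest unadjusted p was 0.0552 for Timp1 with edgeR, 0.0614 for Timp1 with DESeq2 and 0.185 for Timp3 with limma. A loss of oscillation in dnOGAh hearts is thus not shown for any member.

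**Figure D3:**
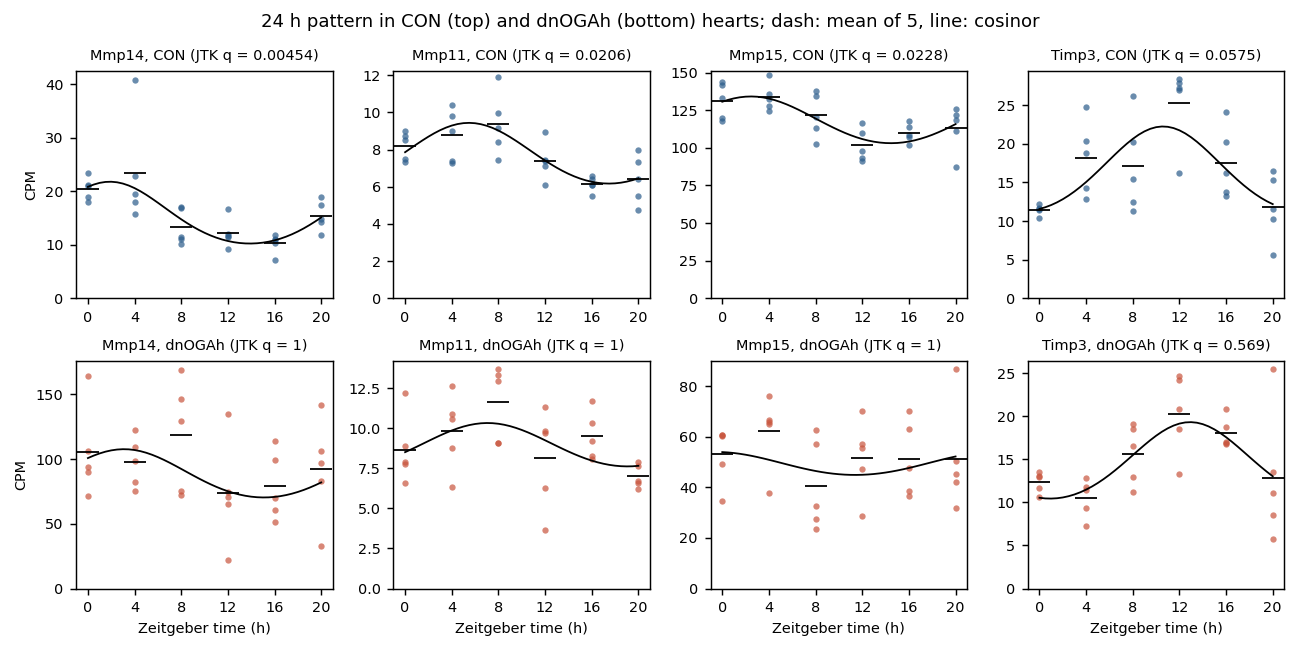
Level (CPM, axes from 0 and scaled per panel) of Mmp14, Mmp11, Mmp15 and Timp3 in each CON (top) and dnOGAh (bottom) heart against Zeitgeber time, with the mean of 5 hearts as a dash and the fitted 24 h cosine as a line. The CON means are highest at ZT4 for Mmp14 and Mmp15 (for Mmp14 at ZT0 without replicate 4 at ZT4), at ZT8 for Mmp11 and at ZT12 for Timp3, and the points within a time are more spread in dnOGAh hearts for Mmp14 and Mmp15.

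Mmp14 showed the strongest daily pattern. CON hearts held 22.8, 15.8, 18.0, 40.9 and 19.4 CPM at ZT4 and 11.9, 10.3, 10.9, 7.14 and 11.2 CPM at ZT16, so that the lowest heart at ZT4 was above the highest at ZT16. These are the times of the highest and lowest CON mean of Mmp14, picked from the same values. No share of all genes with such a gap was determined. The ZT4 mean of 23.4 CPM was above the ZT0 mean of 20.504 CPM only with replicate 4, and without it was 19.0 CPM, with a JTK q of 0.00686. Its log2 amplitude, the distance from the mean to the peak of the fitted cosine, was 0.54 (SE 0.0878) with a peak at 1.88 h after lights on (SE 0.616 h, JTK q = 0.00454). In dnOGAh hearts it was 0.31 (SE 0.159) and the q-value was 1.0, and the difference between the genotypes had an unadjusted p of 0.173 (edgeR).

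Mmp11 and Mmp15 had smaller cycles in CON hearts. Mmp11 ran from a mean of 6.14 ± 0.408 CPM (SD, n = 5) at ZT16 to 9.38 ± 1.69 CPM at ZT8, with a log2 amplitude of 0.31 (SE 0.0540), a peak at 5.47 h and a JTK q of 0.0206. Mmp15 ran from 102 ± 10.8 CPM at ZT12 to 134 ± 9.15 CPM at ZT4, with a log2 amplitude of 0.19 (SE 0.0381), a peak at 2.46 h and a JTK q of 0.0228. In dnOGAh hearts the log2 amplitudes were 0.22 (SE 0.103) for Mmp11 and 0.13 (SE 0.126) for Mmp15. All 3 transcripts that oscillated in CON hearts peaked in the light phase.

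Timp3 and Timp4 peaked later. In CON hearts Timp3 was at 11.7, 12.2, 10.4, 11.5 and 11.5 CPM at ZT0 and at 27.2, 26.9, 16.3, 27.9 and 28.3 CPM at ZT12, with no overlap. These are the times of its lowest and highest CON mean, picked from the same values. No share of all genes with such a gap was determined. The fitted log2 amplitudes were 0.49 (SE 0.114), peaking at 10.6 h, in CON hearts and 0.44 (SE 0.107), peaking at 12.9 h, in dnOGAh hearts, and JTK missed the threshold in both (q = 0.0575 and 0.569). With a cosine fitted by edgeR in place of JTK, Timp3 passed in CON (adjusted p = 0.00602) and not in dnOGAh hearts (adjusted p = 0.155). For Timp4 the cosine had a log2 amplitude of 0.46 (SE 0.131) in CON and 0.70 (SE 0.287) in dnOGAh hearts, with peaks at 14.9 h and 15.1 h, and passed in neither (JTK q = 0.164 and 1.0).

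The remaining transcripts (Mmp2, Mmp3, Mmp12, Timp1 and Timp2) had JTK q-values of 0.608 to 1.0 in CON and 1.0 in dnOGAh hearts. The point estimate of the amplitude was larger in CON hearts for 8 of the 10, the exceptions being Mmp2 and Timp4, and the log2 amplitudes of all genes had a median of 0.16 in CON and of 0.12 in dnOGAh hearts. With 1 replicate number left out, which removes 6 of the 30 CON hearts, the JTK count in CON was 1 without replicate 1, 2 or 4, 2 (Mmp14 and Timp3) without replicate 3 and 0 without replicate 5, where Mmp14 and Mmp11 each had a q of 0.0833. The share of all genes that oscillated fell with it, from 2.13% to between 0.579% and 1.22%. Without CON ZT4 replicate 4 alone, where 2.61% of all genes oscillated, the count was 5, with Timp3 (q = 0.0306) and Timp4 (q = 0.0244) added to the 3.

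Levels were compared between transcripts only per kilobase of exon, on a scale of CPM per kilobase that uses the summed exon length of each gene in GENCODE M21. In CON hearts Timp2 was the highest at 30.7 ± 3.68 CPM per kilobase (SD, n = 30), followed by Mmp15 (22.0 ± 2.94), Mmp2 (19.0 ± 2.44), Timp4 (8.90 ± 3.79), Timp1 (5.72 ± 4.43), Mmp11 (2.78 ± 0.581), Mmp14 (2.66 ± 1.08), Mmp3 (2.38 ± 0.829), Timp3 (2.08 ± 0.774) and Mmp12 (0.0838 ± 0.0651). Neighbours from Timp2 to Timp1 kept their order in 25 to 29 of 30 CON hearts, while Timp1 was above Mmp11 in 23, Mmp11 above Mmp14 in 18, Mmp14 above Mmp3 in 19 and Mmp3 above Timp3 in 20, so these neighbours do not differ beyond their spread. In dnOGAh hearts the order became Timp1 (323 ± 132 CPM per kilobase), Timp2 (48.9 ± 7.11), Mmp2 (39.0 ± 12.4), Mmp14 (15.8 ± 5.95), Mmp3 (10.2 ± 3.17), Mmp15 (9.59 ± 2.97), Mmp11 (3.29 ± 0.886), Timp4 (2.65 ± 3.07), Mmp12 (2.43 ± 0.993) and Timp3 (1.84 ± 0.624). There Timp1 was above Timp2 in all 30 hearts, but Mmp3 was above Mmp15 in only 18, and Timp4 was above Mmp12 in only 9. Without the 3 libraries that stand apart, the mean in dnOGAh hearts went from 15.6 to 11.6 CPM for Timp4. That of Mmp12 went from 17.6 to 18.7 CPM, which puts Mmp12 above Timp4 per kilobase.

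**Figure D4:**
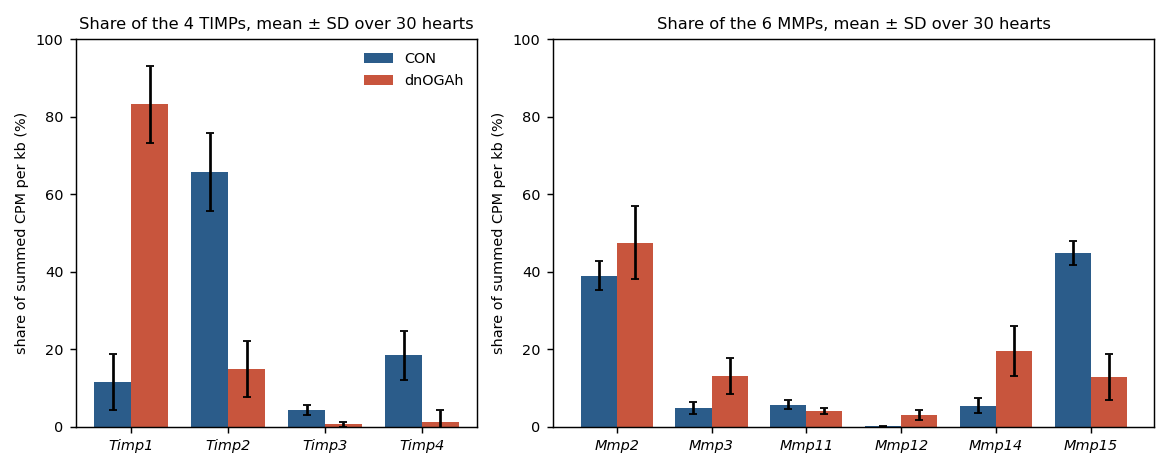
Share of each TIMP (left) and MMP (right) in the summed CPM per kilobase of the 4 TIMPs or 6 MMPs, as mean over 30 hearts with bars for 1 SD, CON in blue and dnOGAh in red. Timp2 holds the largest TIMP share in CON and Timp1 in dnOGAh hearts, and Mmp15 gives way to Mmp2, Mmp14 and Mmp3 among the MMPs.

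The make-up of both families changed with genotype. Timp2 held 65.8 ± 10.1% (SD, n = 30) of the summed TIMP level per kilobase in CON hearts, Timp4 18.5 ± 6.28%, Timp1 11.5 ± 7.19% and Timp3 4.30 ± 1.22%. In dnOGAh hearts Timp1 held 83.3 ± 9.94%, Timp2 14.9 ± 7.25%, Timp4 1.23 ± 3.00% and Timp3 0.645 ± 0.633%, and in ZT12 replicate 3, where its share was lowest, Timp1 still held 46.7% and Timp4 held 16.7%. Without the libraries that stand apart the dnOGAh shares were 84.5% for Timp1, 14.3% for Timp2, 0.603% for Timp4 and 0.563% for Timp3. Among the MMPs, Mmp15 (44.9 ± 3.13%) and Mmp2 (39.0 ± 3.67%) made up most of the CON level, whereas in dnOGAh hearts Mmp2 held 47.6 ± 9.48%, Mmp14 19.5 ± 6.54%, Mmp3 13.1 ± 4.62% and Mmp15 12.8 ± 5.95%. The summed TIMP level was 47.4 ± 6.70 CPM per kilobase in CON and 377 ± 133 in dnOGAh hearts, the summed MMP level 48.9 ± 5.25 and 80.3 ± 13.9, and the ratio of the sums 0.984 ± 0.198 in CON (highest heart 1.42) and 4.71 ± 1.66 in dnOGAh hearts (lowest heart 1.37). These sums and shares follow from the levels already tested and are a description of transcript, not of protein or enzyme activity.

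Hearts of one genotype and time varied more among themselves in dnOGAh than in CON for 5 transcripts. On the log2 CPM scale the SD within a time was 3.22 times that of CON for Mmp15 (0.479 against 0.149), 2.83 times for Mmp2, 2.09 times for Timp4, 1.86 times for Mmp14 and 1.75 times for Mmp11, and without the 3 libraries that stand apart 3.23, 2.18, 2.35, 1.95 and 1.29 times. The ratios of the other 5 lay between 0.940 and 1.32 with those libraries and between 0.618 and 1.03 without them, where Mmp12 went from 1.24 to 0.618. Over all genes the median ratio was 0.979, and 47.6% of genes had a ratio over 1. These ratios are given without a test.

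The transcripts also varied together from heart to heart. After each group mean was subtracted, 25 of the 45 pairs of members had a Pearson correlation above 0.5 in size over the 30 dnOGAh hearts and 3 had one over the 30 CON hearts. Without the 3 libraries that stand apart these numbers were 20 and 2. No share was determined for pairs of other genes, so these counts are not shown to be particular to the members. Mmp14 and Mmp15 were opposed in dnOGAh hearts (r = -0.88, and -0.936 without those libraries) and only weakly so in CON hearts (-0.214 and -0.198). For Mmp2 and Timp2 r was 0.884 in dnOGAh and 0.618 in CON hearts, and 0.727 and 0.459 without those libraries. For Mmp14 and Timp1 it was 0.831 and 0.471, and 0.78 and 0.337 without them. For Mmp12 and Timp1 it was 0.786 and 0.255, and 0.732 and 0.213 without them. The hearts share library depth and cell content within each value, so the correlations are a description with no p.

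The genes most like each transcript were sought among 10390 genes with a mean of at least 5 CPM, by Pearson correlation of the same deviations over the 60 libraries. Mmp15 was most like Acacb (r = 0.909), Asb14 (0.907) and Epas1 (0.901), and Timp4 most like Adh1 (0.892), Slc9a3r2 (0.886) and Sult1a1 (0.864). Mmp14 was most like Cybb (0.874), Ncf1 (0.869) and Ifi207 (0.863), of which the first 2 encode subunits of the phagocyte NADPH oxidase. Mmp2 was closest to Islr (0.868), Mxra8 (0.868) and Pltp (0.864), and Timp2 to Mxra8 (0.839), Itgb5 (0.829) and Pltp (0.826), so that these members share 2 of their 3 nearest genes. Timp1 was nearest to Ifi27l2a (0.838), Cdkn1a (0.816) and Spp1 (0.808), Mmp11 to Sfrp1 (0.83), Asah1 (0.798) and C1qtnf6 (0.795), and Mmp12 to Tnc (0.782), Itgb2 (0.713) and Ikzf1 (0.708). Timp3 was nearest to Zmynd11 (0.82), Ncoa4 (0.737) and Map4 (0.722), and Mmp3, with the lowest values, to Mogs (0.652), Itgam (0.604) and Aldh1a2 (0.594). Over the 30 CON hearts alone these 30 correlations ran from 0.19 (Mmp12 with Itgb2) to 0.843 (median 0.633) and over the 30 dnOGAh hearts from 0.69 to 0.959 (median 0.912), 29 of them higher in dnOGAh. Without the 3 libraries that stand apart they ran from 0.516 to 0.914, with Mmp12 lowest against Itgb2. The pairs were picked by their correlation over the same 60 libraries, where hearts with larger deviations weigh more. No share was determined for other pairs, so the count of 29 higher in dnOGAh only describes the picked pairs.

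The other genes of the pathway were read over the day with the same edgeR test, which called 38.8% of all genes higher and 31.9% lower. Of 17 other MMP genes 12 were tested, and 9 rose, none fell and 3 did not pass, with a median log2 fold change of 1.62. Mmp8 and Mmp24 had at most 3 counts in any CON heart, and Mmp25 reached at most 0.591 CPM in CON hearts. These genes could pass the filter on low counts only through dnOGAh hearts. The count and the median thus include genes whose direction the filter had fixed. Mmp23 went from 11.0 ± 2.62 CPM (SD, n = 30) in CON to 30.1 ± 7.84 CPM in dnOGAh hearts (log2 fold change 1.46, SE 0.0988), and Mmp19, a basement membrane protease, from 1.40 ± 0.798 to 7.27 ± 2.35 CPM (2.46, SE 0.152). The collagenase Mmp13 rose from 0.781 ± 0.428 to 2.44 ± 0.810 CPM, and the membrane-type Mmp25 from 0.145 ± 0.150 to 1.60 ± 0.933 CPM. Mmp27, Mmp16 and Mmp21 rose from means of 0.180 to 0.352 CPM to means of 0.496 to 1.17 CPM. Neutrophil collagenase Mmp8 had no read in 21 of 30 CON hearts and a mean of 0.863 ± 0.696 CPM in dnOGAh, and Mmp24 had no read in 27 CON hearts and a mean of 0.875 ± 0.547 CPM in dnOGAh. Gelatinase B, Mmp9, was at 0.688 ± 0.514 CPM in CON and 0.881 ± 0.398 CPM in dnOGAh hearts and did not pass (adjusted p = 0.139, edgeR), nor did Mmp17 (0.321) or Mmp28 (0.0915).

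**Figure D5:**
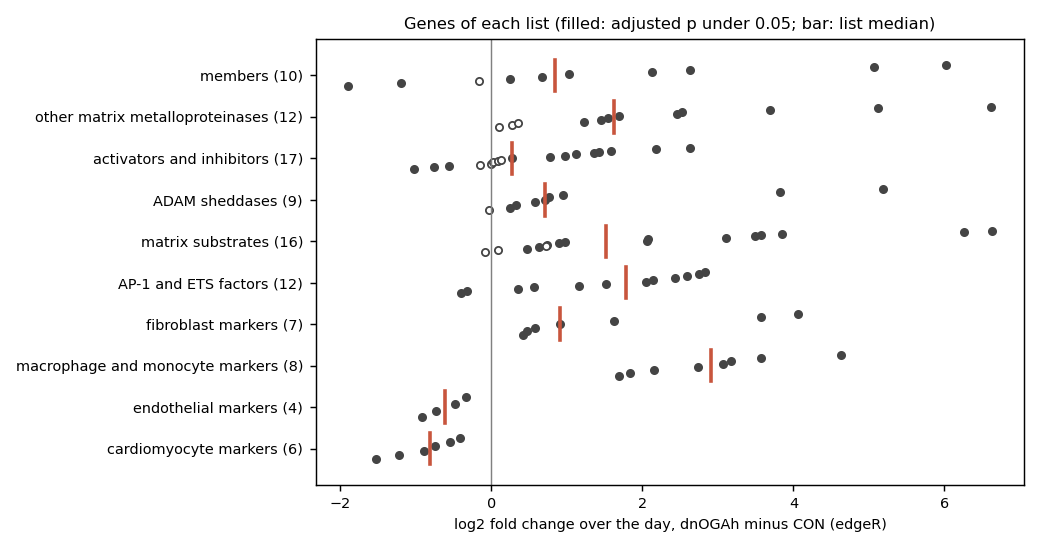
Log2 fold change over the day (dnOGAh minus CON, edgeR) of each tested gene in the 10 transcripts (members), the pathway lists and the marker lists, with the number tested in brackets; filled points passed an adjusted p of 0.05 and the red bar is the list median. Macrophage, substrate and AP-1 and ETS lists lie mostly to the right of zero, and endothelial and cardiomyocyte markers lie to the left.

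Among 20 activators and inhibitors other than TIMPs 17 were tested, with 9 higher, 3 lower and a median of 0.27. Plaur, the urokinase receptor, rose by 2.18 on the log2 scale (SE 0.142) from 2.13 ± 0.862 to 9.35 ± 2.73 CPM. Pcolce, which enhances procollagen C-propeptide cleavage, and the protease inhibitor Serpine2 rose by 1.59 (SE 0.0750) and 1.43 (SE 0.0723). The 3 that were lower are Bsg, an inducer of MMP expression, at -1.03, Pcsk6, a furin-like convertase, at -0.76, and the mast cell protease Mcpt4 at -0.56, which were named after their values were seen.

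Of 10 ADAM genes, a family of membrane proteins of which only some are sheddases that TIMPs can block, 9 were tested. Of these 8 were higher and none lower, with a median of 0.71. Adam8 rose from 0.915 ± 0.607 to 30.4 ± 12.5 CPM (log2 fold change 5.19, SE 0.223) and Adam12 from 0.493 ± 0.420 to 6.11 ± 2.91 CPM (3.82, SE 0.267), while Adam19 and Adam9 rose by 0.95 (SE 0.0804) and 0.77 (SE 0.0835).

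Of 16 matrix substrates 13 were higher, none was lower and the median was 1.52. The glycoprotein Tnc rose from 1.72 ± 1.26 to 153 ± 59.2 CPM (log2 fold change 6.63, SE 0.230) and Spp1, osteopontin, from 2.25 ± 2.20 to 147 ± 90.4 CPM (6.26, SE 0.301). Col1a1 and Dcn of this list are also among the fibroblast markers. The fibrillar collagens Col3a1 and Col1a1 rose by 3.85 (SE 0.163) and 3.58 (SE 0.144).

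Of 12 AP-1 and ETS-related factors, the classes whose elements were searched in the promoters together with RUNX factors, 10 were higher, 2 were lower and the median was 1.79. Fosl1 had no read in 19 CON hearts and at most 3 counts in any. It could pass the filter on low counts only through dnOGAh hearts, so the count and median include a direction the filter had fixed. Runx1 rose from 2.15 ± 1.01 to 14.3 ± 4.98 CPM (log2 fold change 2.83, SE 0.152), Runx2 by 2.59 (SE 0.206), Etv4 by 2.43 (SE 0.166), and Fos by 2.14 (SE 0.258) from 7.00 ± 10.8 to 24.6 ± 14.6 CPM. The 2 lower factors, Ets1 (-0.32) and Ets2 (-0.40), were named after their values were seen. In ZT12 replicate 3 the levels of Tnc (9.16 CPM), Spp1 (3.91 CPM), Adam8 (2.503 CPM) and Runx1 (2.63 CPM) were low as well.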

How the data were processed

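RNA-seq of ventricles from 60 mice (12 groups of 5 hearts) was read from 1 table of whole-number counts per gene, deposited by the authors. Per the labels' processing notes the tools were HTSeq 2.0.2, STAR 2.7.10b and Trim Galore 0.6.7, the build was GRCm39, and the library kit marks strand; the annotation release and the strand setting of the counting are not given in the sources used here. Rows that name no gene held 29.4% to 48.2% of all counts in CON and 23.1% to 48.7% in dnOGAh libraries and were left out. All 60 sample columns were used. The ZT24 label was read as ZT0. Gene names came from a GRCm38 table that matched 52093 of 53700 rows, and exon lengths and overlaps from GENCODE M21.

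Counts were scaled to counts per 1e+06 (CPM) with TMM factors, and 18119 genes passed a filter at a minimum count of 10. edgeR 4.0.16 (quasi-likelihood, a means model over the 12 groups, R 4.3.3) gave the genotype difference over the day, at each time, and its interaction with time, with Benjamini-Hochberg adjustment and a threshold of 0.05. Oscillation was tested by JTK_CYCLE with a 24 h period and 6 lags of 2 h, and by cosine fits on log2 CPM with a prior count of 2. Alternatives were DESeq2 1.42.0, limma 3.58.1, other scalings, no filter, each replicate number left out, a replicate block, and, added after seeing the data, leaving out the 3 libraries that stand apart. Scripts in R and Python 3.11.15 were tested on simulated data.

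The 10 transcripts and the gene lists were chosen with earlier results of these data known. Named genes were all 10 transcripts, every other MMP gene past the filter, up to 4 genes of each other pathway list with a mean of 1 CPM or more, one direction at all 6 times and the largest change, and the 3 genes most like each transcript. A gene that this rule names among the activators and inhibitors is not reported here. Each library is 1 heart, and p-values measure the spread between hearts.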

Additional observations from a re-analysis of the deposited data

Results flagged for a closer look

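In 12 of the 120 groups of 5 hearts (10 transcripts, 2 genotypes, 6 times) 1 heart lay far from the other 4 by Dixon's criterion, where chance gives about 1 in 20. Of these, 3 belong to libraries that stand apart in other measures. In dnOGAh ZT12 replicate 3, Timp4 was at 99.27 CPM against 12.8 to 22.46 CPM in the other hearts, and Mmp12 was at 0.9768 CPM against 17.79 to 20.91 CPM. In dnOGAh ZT4 replicate 4, Mmp2 was at 31.18 CPM against 100.5 to 146.7 CPM.

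Another dnOGAh heart, ZT8 replicate 2, was high for both Mmp2 (190.4 CPM against 119.6 to 129.1 CPM) and Timp2 (259.5 CPM against 189.1 to 199.5 CPM). The CON heart ZT12 replicate 3 was high for Mmp12 (2.182 CPM against 0.7298 to 0.8192 CPM) and low for Timp3 (16.26 CPM against 26.93 to 28.34 CPM).

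The others were single. Mmp2 was at 53.63 CPM in CON ZT0 replicate 3 (69.09 to 74.67 CPM in the other hearts), Mmp12 at 0.1752 CPM in CON ZT20 replicate 4 (0.6166 to 0.7625 CPM), Mmp3 at 8.817 CPM in dnOGAh ZT16 replicate 3 (16.27 to 17.63 CPM), Mmp15 at 37.66 CPM in dnOGAh ZT4 replicate 3 (64.95 to 76.24 CPM) and Timp4 at 24.0 CPM in dnOGAh ZT16 replicate 1 (13.52 to 14.81 CPM).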

How the results depend on the processing

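The genotype differences over the day kept their direction and their side of the threshold for all 10 transcripts under all 15 alternatives, with Timp1 between 5.81 and 6.17 on the log2 scale and Mmp11, the smallest change called, between 0.21 and 0.29 (highest adjusted p 0.0402, edgeR or DESeq2). The number of transcripts oscillating in CON hearts, 3, was not stable: it was between 0 and 2 with 1 replicate number left out (0 without replicate 5), and 5 without CON ZT4 replicate 4 and without the 3 libraries that stand apart. Over all genes the oscillating share moved the same way, from 2.13% to between 0.579% and 1.22% with a replicate number left out, and to 2.61% and 2.73% without those libraries. The number called lower at ZT12, 1, became 2 (with Timp4 added) without dnOGAh ZT12 replicate 3, without dnOGAh ZT4 replicate 4, without these 3 libraries and with the replicate block, and was between 1 and 2 with 1 replicate number left out. Beyond the library that is left out, the cause was not tested. Of values that were not called, the sign turned when 1 replicate number was left out for Mmp11 at ZT0 (range -0.0576, without replicate 5, to 0.1384) and ZT12 (-0.0612, without replicate 1, to 0.3267), and for Timp3 at ZT8 (-0.3385 to 0.0223, positive without replicate 4 or 5), ZT16 (-0.0617 to 0.1306, negative without replicate 1 or 3) and ZT20 (-0.1921, without replicate 5, to 0.3787). Replicate numbers did not pair the hearts: the mean correlation of deviations was between -0.0158 and 0.0288 for the same number and 0.000854 for different numbers. With the replicate block 7 transcripts were higher and 2 lower over the day, and 4 oscillated in CON and 0 in dnOGAh hearts. Depth limits Mmp12 in CON hearts, where 1 to 34 counts stand behind each value.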
